A study of Homo sapiens with 29 samples.

Results

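The subject of these results is how far 2 human lymphoma lines differed in their response to R406 after 24 h. For each gene, the R406 response of DHL6 (24 h of R406 minus DMSO) was taken, and the same response of DHL4 was subtracted from it. The difference, called the line difference below, was computed for 12165 genes from 11 of the 29 arrays of the series. The groups were DHL6 with R406 for 24 h (3 arrays), DHL6 with the solvent DMSO (3 arrays), DHL4 with R406 for 24 h (3 arrays) and DHL4 with DMSO (2 arrays). DHL6 and DHL4 are established lines of diffuse large B-cell lymphoma, which arises from mature B lymphocytes, and R406 inhibits the tyrosine kinase SYK. R406 was given at 1 µM in RPMI medium with serum, and each line has its own DMSO arrays. The labels give the lines no genotype, and with 1 line on each side a line difference cannot be assigned to any single feature of a line.

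In B cells, SYK passes the signal of the B-cell receptor on to several branches. The PI3K and AKT branch keeps FOXO transcription factors out of the nucleus, where they otherwise switch on genes of growth arrest. Receptor signals also maintain MYC, which drives ribosome synthesis, nucleotide and polyamine synthesis and cell division, and they feed into NF-kB, sterol synthesis and cell migration.

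Array values are log2 expression, so a difference of 1 is a 2-fold change. A positive line difference means that the response of DHL6 was the more positive, whichever way each line moved. Errors are standard errors (SE) from a limma model of all arrays, and a gene was called at a Benjamini-Hochberg adjusted p below 0.05 over all 12165 genes. Within the 4 groups, replicate arrays correlated across genes at r between 0.990 and 0.996, and 0 pairs were identical. Whether the arrays of a group represent separate cultures is not stated in the labels. The p-values therefore rest on array-to-array spread that may be technical, and the small number of arrays limits the precision. The labels give the DMSO arrays no time, so R406 and time in culture cannot be told apart within a response. The B-cell genes MS4A1 (CD20), CD79A and CD79B were bright in all 4 groups (group means from 8.39 to 11.7), whereas PAX5 lay at 2.59 to 2.82, which is below the level of 4 taken here as dim. CD3D, CD3E, CD14, CD68 and COL1A1, defining genes of T cells, monocytes or macrophages and fibroblasts, lay at 3.45 or lower in every group. Not every such marker was dim: 1 of 12 T-cell markers reached the level of 4 in each group. Among 12 fibroblast and endothelium markers, PECAM1 stood at 7.64 in treated DHL4 and DCN at 8.43 in DHL4 in DMSO.

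The line difference was called for 1989 genes (16.4%), with 1138 higher in DHL6 (9.35%) and 851 lower (7.00%). Of these, 1090 (8.96%) differed at least 2-fold. The 2 responses themselves were unequal in extent: 1748 genes (14.4%) were called in DHL6 and 3593 (29.5%) in DHL4, and the standard deviation of the log2 response over all genes was 0.42 in DHL6 and 0.75 in DHL4. The median line difference over all genes was close to 0 (-0.0041).

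Most line differences were changes of DHL4 that DHL6 lacked or showed in lesser degree. In 1204 of the 1989 genes (60.5%) the response was called in DHL4 only, with 495 up and 709 down in DHL4. A further 476 genes (23.9%) were called in both lines with the same sign, and 23 of them moved more in DHL6 and 453 in DHL4. The response was called in DHL6 only for 176 genes (8.85%), 82 up and 94 down. Opposite called responses were found for 88 genes (4.42%), of which 31 were up in DHL6 and down in DHL4, and 57 the reverse. For 45 genes (2.26%) neither response was called by itself. In 273 of the 1204 genes of the DHL4 class both DHL6 groups were dim, so a fall in DHL6 could not have been seen there. In 831 of the 1204 no group was dim. Both DHL4 groups were dim in 57 of the 176 genes of the DHL6 class, so a fall in DHL4 could not have been seen there. In 102 of the 176 no group was dim.

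**Figure D1:**
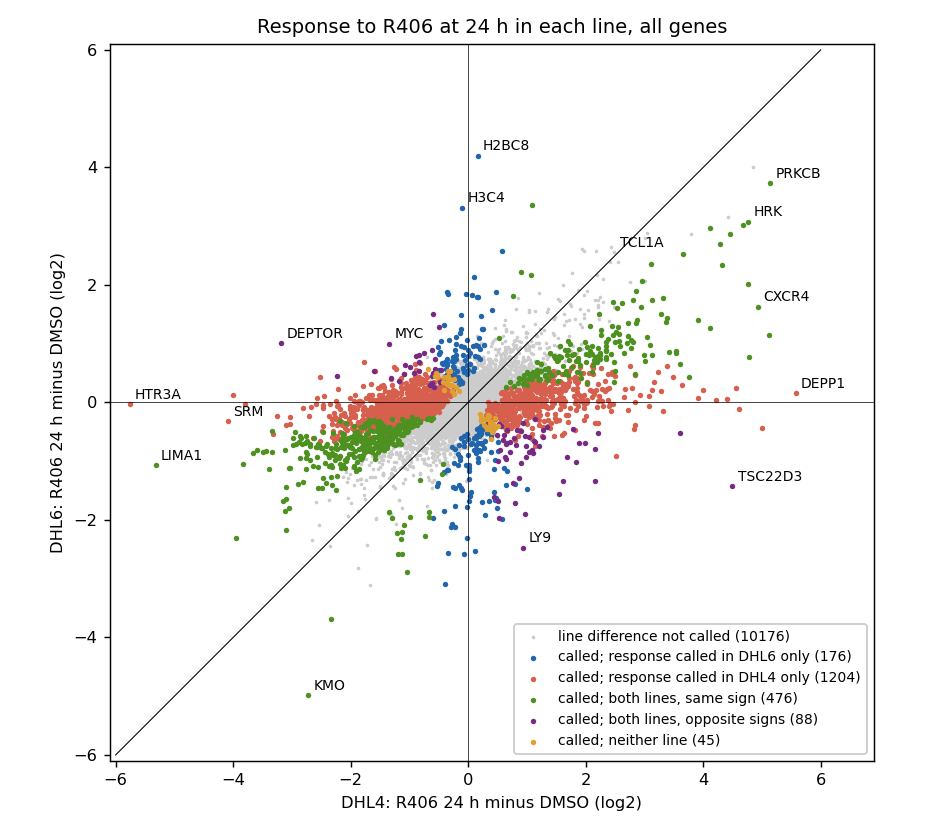
Response of every gene to 24 h of R406 (R406 minus DMSO, log2), with DHL6 on the vertical axis and DHL4 on the horizontal axis. Coloured points are the 1989 genes with a called line difference, by class, grey points are the other genes, and the diagonal marks equal responses. The 1204 genes called in DHL4 only form the flat band along the horizontal axis, and the 176 genes called in DHL6 only lie along the vertical axis.

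MYC targets and genes of ribosome synthesis had the highest median line difference of the 36 gene lists examined. Of 35 measured MYC targets and ribosome synthesis genes, 27 were called higher in the line difference and 0 lower, with a list median of 1.45 beside -0.0041 over all genes. Its median response was -0.48 in DHL6 and -1.95 in DHL4. In DHL6, 18 members fell (8.17% of all genes) and 1 rose (6.20%), and in DHL4 33 fell (16.5%) and 0 rose (13.0%). Because the lists were chosen with earlier results of these data known, such counts describe the lists and are not independent evidence for them.

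MYC itself was the member that rose in DHL6. Its level was 10.36, 10.32 and 10.28 on the R406 arrays of DHL6, against 9.35, 9.33 and 9.28 on the DMSO arrays. In DHL4 it was 8.63, 8.61 and 8.71 with R406, against 9.98 and 10.00 in DMSO. The R406 arrays thus lay above all DMSO arrays in DHL6 and below them in DHL4, with no overlap. MYC rose by 1.00 ± 0.07 in DHL6 (2.00-fold) and fell by 1.34 on the log2 scale in DHL4 (SE 0.08), and the line difference was 2.34 ± 0.11 (adjusted p = 1.38e-13).

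The largest line difference among MYC targets was that of SRM, the spermidine synthase of the polyamine pathway. SRM stood at 7.79, 7.84 and 7.89 with R406 and at 8.22, 8.24 and 8.03 in DMSO in DHL6. In DHL4 it stood at 3.60, 5.02 and 5.06 with R406, against 8.51 and 8.81 in DMSO. All 3 treated DHL4 arrays were far below every other array, and 1 of them was dim, whereas the change in DHL6 (-0.32 ± 0.23) was not called. The line difference of SRM was 3.77 ± 0.34 (adjusted p = 1.10e-08).

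NME1, a nucleoside diphosphate kinase, fell in both lines. Its levels in DHL6 were 9.76, 9.53 and 9.57 with R406, against 10.11, 10.16 and 10.05 in DMSO. In DHL4 they were 5.97, 6.63 and 6.49 with R406, against 9.71 in each DMSO array. The fall was shallow in DHL6 (-0.49) and deep in DHL4 (-3.34), without overlap of R406 and DMSO arrays in either line, and the line difference was 2.86 ± 0.20. NOP16, a nucleolar protein of large-subunit assembly, likewise responded with -0.85 in DHL6 and -3.49 in DHL4 (line difference 2.65 ± 0.32), and a second NOP16 probe set gave 2.33. A dim NOP16 probe set (-0.08) was not called.

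The promoters of these genes are given because the E-box CACGTG is the sequence that MYC with its partner MAX binds. The sequences are those of RefSeq (GRCh38.p14), from 250 bases before to 50 after the annotated start, 5′ to 3′ on the gene's strand, with CACGTG in capitals. SRM lies at chr1:11059969-11060268 on the minus strand, NME1 at chr17:51153309-51153608 on the plus strand and NOP16 at chr5:176388549-176388848 on the minus strand.
SRM: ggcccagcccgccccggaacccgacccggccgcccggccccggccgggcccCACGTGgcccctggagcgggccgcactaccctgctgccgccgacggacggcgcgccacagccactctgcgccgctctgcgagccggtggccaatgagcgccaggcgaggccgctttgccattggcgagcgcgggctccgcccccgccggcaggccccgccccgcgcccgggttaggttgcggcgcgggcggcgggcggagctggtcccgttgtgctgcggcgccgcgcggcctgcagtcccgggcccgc
NME1: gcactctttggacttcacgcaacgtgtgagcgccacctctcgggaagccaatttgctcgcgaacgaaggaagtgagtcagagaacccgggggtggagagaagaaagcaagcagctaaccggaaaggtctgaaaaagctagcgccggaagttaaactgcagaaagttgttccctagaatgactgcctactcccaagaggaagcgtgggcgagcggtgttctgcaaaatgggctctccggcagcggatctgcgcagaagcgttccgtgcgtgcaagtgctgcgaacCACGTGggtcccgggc
NOP16: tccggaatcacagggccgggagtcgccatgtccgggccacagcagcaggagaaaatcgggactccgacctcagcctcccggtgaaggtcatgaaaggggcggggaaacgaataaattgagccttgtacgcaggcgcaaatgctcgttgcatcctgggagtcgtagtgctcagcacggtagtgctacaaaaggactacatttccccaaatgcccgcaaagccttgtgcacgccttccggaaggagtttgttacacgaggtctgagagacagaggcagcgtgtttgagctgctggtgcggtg
The window of SRM holds the motif once, starting at base 52, that of NME1 once, starting at base 285, and that of NOP16 lacks these letters. The window of PAICS, a further member of the MYC list that is not printed, lacks them too. The motif is its own reverse complement, so a search of 1 strand covers both. CACGTG was found in 51.7% of the MYC list's promoters (15 of 29 with a sequence), against 9.4% of those of all genes tested (916 of 9711) and 7.4% of all promoters in the table (2030 of 27305). The share was 14.2% among genes called higher in the line difference (138 of 970), and 78 of 712 genes called lower held it. A match of letters is a description and not a binding site.

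Nucleotide and polyamine enzymes followed the same pattern. Of 22 measured, 17 were called higher (9.35% of all genes) and 1 lower (7.00%), with a median of 1.31. SRM is in this list and in the MYC list, so the counts of these lists overlap and are not independent. PFAS and PAICS, enzymes of purine synthesis, had line differences of 2.67 ± 0.27 and 2.37 ± 0.22, with responses of -0.37 and -0.61 in DHL6 and of -3.03 and -2.97 in DHL4. A second PAICS probe set gave 3.16, and a dim one (0.22) was not called. The single member called lower, SAT1, breaks polyamines down. SAT1 fell in DHL6 (6.83, 6.86 and 6.92 with R406, against 7.78, 7.76 and 7.87 in DMSO) and rose in DHL4 (9.49, 9.40 and 9.42 with R406, against 7.90 and 7.63 in DMSO). The arrays of R406 and DMSO did not overlap in either line, and the line difference was -2.61 ± 0.16, with -2.76 and -0.91 by 2 further probe sets and -0.22, not called, by a dim one.

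DDX21, a nucleolar RNA helicase among the largest positive line differences, fell by 0.85 in DHL6 and by 3.66 in DHL4 on the log2 scale (2.81 ± 0.17). Translation factors and tRNA synthetases were called higher in 16 of 22 and lower in 0 (median 1.07). WARS1, the tryptophanyl-tRNA synthetase, had the largest line difference of that list (1.79 ± 0.20). IARS1, the isoleucyl-tRNA synthetase, and EIF2S1 and EIF3B, subunits of translation initiation factors, followed at 1.54, 1.53 and 1.52. The ribosomal proteins themselves did not share this pattern: of 26 measured, 0 were called higher and 1, RPS9, was called lower (-0.41 ± 0.11), and the list median was -0.06.

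Genes of cell division and of protein folding were also called mostly higher in the line difference. Of 29 DNA replication genes, 19 were called higher in the line difference and 0 lower (median 1.11), and the median response was -0.62 in DHL6 and -1.83 in DHL4. MCM4, a subunit of the replicative helicase, stood at 7.89, 7.76 and 7.81 with R406 and at 8.57, 8.58 and 8.45 in DMSO in DHL6. In DHL4 it stood at 6.15, 5.76 and 5.97 with R406, against 9.04 and 8.74 in DMSO. MCM4 was lower with R406 on every array of both lines, and the line difference was 2.21 ± 0.25 (adjusted p = 2.77e-07). MCM6 (2.02) and MCM2 (1.75), of the same helicase, and the DNA ligase LIG1 (1.58) were also called.

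Mitosis genes were called higher in 16 of 30 and lower in 0 (median 0.66). In DHL6, 5 of them rose (6.20% of all genes) and 3 fell (8.17%), and in DHL4 1 rose (13.0%) and 22 fell (16.5%). CDC20, an activator of the anaphase-promoting complex, stood at 8.63, 8.60 and 8.69 with R406 and at 7.88, 7.95 and 7.66 in DMSO in DHL6. In DHL4 it stood between 7.95 and 8.07 on the 3 R406 arrays, against 8.83 and 8.86 in DMSO. It therefore rose in DHL6 (0.81 ± 0.11) and fell in DHL4 (-0.84 ± 0.12), with a line difference of 1.64 ± 0.16. PLK1, a mitotic kinase, fell in DHL4 (-1.78), while its change of 0.69 in DHL6 was not called (adjusted p = 0.0632), and the line difference was 2.47 ± 0.37. The proliferation marker MKI67 fell in both lines (-0.53 in DHL6, -2.30 in DHL4).

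CDK4, the kinase of the G1 cyclins, fell by 0.72 in DHL6 and by 2.84 in DHL4 (line difference 2.12 ± 0.16). Among 16 G1 cyclins and CDK inhibitors, 2 were called higher (9.35% of all genes) and 3 lower (7.00%). The cyclin gene CCND2 was dim in all 4 groups (0.24 ± 0.23, adjusted p = 0.641).

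All 8 measured subunits of the CCT chaperonin, which folds actin and tubulin, were called higher in the line difference (median 1.10). The CCT member with the largest value was TCP1 (1.51 ± 0.15), where the response was -0.30 in DHL6, not called, and -1.81 in DHL4. Heat shock genes were called higher in 10 of 13 and lower in 0 (median 0.76). HSPE1, the mitochondrial co-chaperonin, and HSPA8 and HSP90AB1, constitutive cytosolic chaperones, had line differences of 2.14, 1.71 and 1.72. Of 17 ER chaperone genes, 7 were called higher and 2 lower (median 0.46). HSPA5, the main ER chaperone, fell by 0.99 in DHL6 and by 2.09 in DHL4.

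Many metabolic enzymes were called higher as well. Glycolysis genes were called higher in 11 of 19 (median 0.65), led by GPI, the glucose phosphate isomerase (2.02 ± 0.21), and LDHA, the lactate dehydrogenase subunit (1.45 ± 0.16). PFKP and PFKM, phosphofructokinase subunits, rose in DHL6 (0.94 and 0.74), while in DHL4 PFKP was not called (-0.06) and PFKM fell (-0.57). Subunits of oxidative phosphorylation were called higher in 14 of 21 (median 0.43), with NDUFS1 of complex I at 1.32 ± 0.18. In DHL6, 3 of these 21 rose (6.20% of all genes) and 1 fell (8.17%). In DHL4, 2 rose (13.0%) and 14 fell (16.5%).

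Most genes of sterol synthesis fell in both lines. Of 17 genes of cholesterol synthesis and uptake, 13 fell in each line (8.17% of all genes in DHL6, 16.5% in DHL4). The median response was -1.06 in DHL6 and -1.24 in DHL4. In the line difference 7 were called higher and 1 lower (median 0.63). HMGCS1, the enzyme before HMG-CoA reductase, stood at 7.00, 6.89 and 7.00 with R406 and at 9.28, 9.18 and 8.97 in DMSO in DHL6. In DHL4 it stood at 5.84, 5.68 and 5.69 with R406, against 8.81 and 8.84 in DMSO. Both lines fell with no overlap between R406 and DMSO, and the line difference was 0.91 ± 0.21 (adjusted p = 0.00267), with 0.54 ± 0.72, not called, by the other probe set. EBP (1.64) and DHCR7 (1.48), late enzymes of the pathway, fell more in DHL4. Of 12 genes in the fatty acid list, 7 were called higher and 0 lower (median 0.75). They included the desaturase SCD (1.67, with 1.46 and 2 uncalled values, 0.74 and -0.11, by its other probe sets) and TMEM97, a sterol-regulated membrane protein that is no fatty acid enzyme (1.92). Without the first DHL4 DMSO array, 4 were called higher.

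Amino acid supply genes that depend on ATF4 were called higher in 9 of 21 and lower in 1 (median 0.58). The median response of that list was 0.09 in DHL6 and -0.67 in DHL4. In DHL6, 3 members rose (6.20% of all genes) and 2 fell (8.17%), and in DHL4 2 rose (13.0%) and 13 fell (16.5%). ASNS, the asparagine synthetase, fell by 0.31 in DHL6 and by 2.18 in DHL4 (1.87 ± 0.14). SLC7A5, a transporter of large neutral amino acids, was not called in DHL6 (-0.05) and fell by 2.22 in DHL4 (2.17 ± 0.25). The transcription factor ATF5 gave the largest value of the list (2.94 ± 0.42). Its change was not called in DHL6 (0.43) and was -2.51 in DHL4, a second probe set gave 2.10 and a dim one 0.13, not called.

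**Figure D2:**
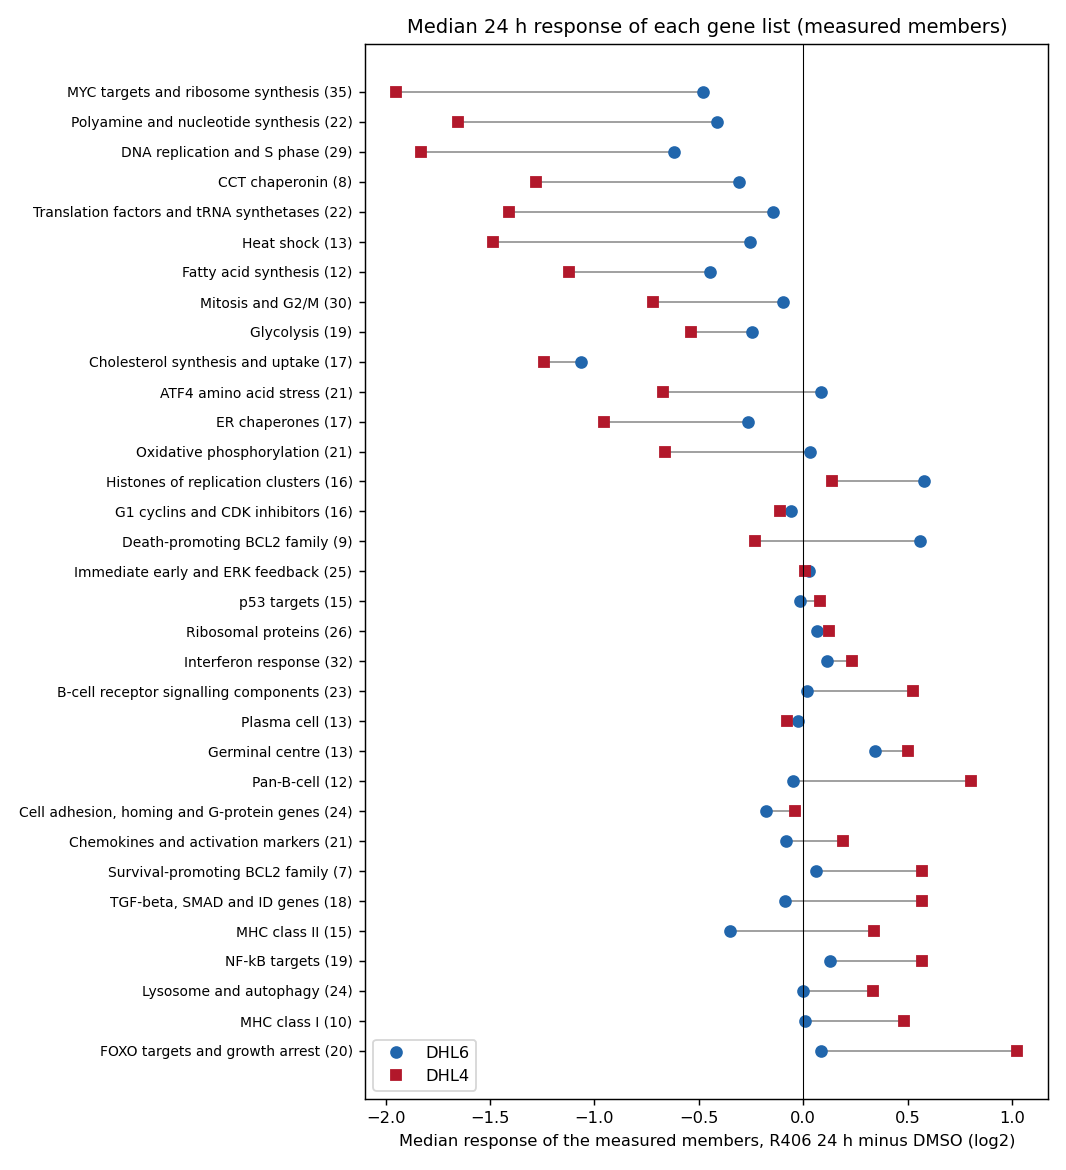
Median response to 24 h of R406 (R406 minus DMSO, log2) of the lists other than those of other cell types, with the number of measured genes in brackets, in DHL6 (circles) and DHL4 (squares). Lists are ordered by their median line difference, from MYC targets (-0.48 in DHL6, -1.95 in DHL4) at the top to FOXO targets (0.09 in DHL6, 1.03 in DHL4) at the bottom.

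Most genes of growth arrest rose in DHL4, and fewer did in DHL6. Of 20 measured FOXO targets and growth arrest genes, 0 were called higher and 13 lower in the line difference (median -0.89). In DHL6, 7 rose (6.20% of all genes) and 0 fell (8.17%), and in DHL4 14 rose (13.0%) and 0 fell (16.5%). CDKN1B, the CDK inhibitor p27, stood at 4.47, 4.15 and 3.74 with R406 and at 3.88, 3.54 and 3.36 in DMSO in DHL6. In DHL4 it stood at 6.47, 6.43 and 6.60 with R406, against 3.37 and 3.18 in DMSO. The treated DHL4 arrays lay far above their DMSO arrays, whereas those of DHL6 overlapped theirs (0.53 ± 0.26, adjusted p = 0.219), and the line difference was -2.70 ± 0.39 (adjusted p = 1.27e-05).

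GADD45A, a stress-induced inhibitor of the cell cycle, rose in both lines. Its levels in DHL6 were 7.68, 7.84 and 7.15 with R406, against 5.56, 5.46 and 5.63 in DMSO. In DHL4 they were 11.03, 10.98 and 10.98 with R406, against 6.27 and 6.19 in DMSO. The rise was 4.03-fold in DHL6 and 27.2-fold in DHL4 (line difference -2.76 ± 0.35). PIK3IP1, an inhibitor of PI3K, likewise rose by 1.37 in DHL6 and by 3.37 in DHL4, and CCNG2, an unconventional cyclin of quiescent cells, rose in DHL4 (1.69) and was not called in DHL6 (-0.33). TXNIP, a FOXO and glucose-responsive gene, had a line difference of -0.71 ± 0.24 (adjusted p = 0.0461) by its brightest probe set. That value lost its call under 13 of 20 alternatives, but the other probe sets gave -1.60 and -1.16, both called.

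The most negative line difference of all genes was that of TSC22D3, the glucocorticoid-induced leucine zipper protein. Its levels in DHL6 were 5.20, 5.70 and 5.43 with R406, against 6.99, 6.85 and 6.77 in DMSO. In DHL4 they were 10.10, 10.12 and 10.12 with R406, against 5.76 and 5.47 in DMSO. The gene fell in DHL6 (-1.42 ± 0.18) and rose 22.6-fold in DHL4 (4.50 ± 0.20), with no overlap in either line, and the line difference was -5.92 ± 0.27 (adjusted p = 5.34e-14). A dimmer probe set gave -2.06.

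Several of the largest negative differences belonged to genes that were dim in DHL6 with and without R406, and dim in DHL4 in DMSO. DEPP1, a FOXO-induced regulator of autophagy, had 2.91, 2.92 and 2.98 with R406 and 2.58, 2.95 and 2.79 in DMSO in DHL6. Its values in DHL4 were 8.50, 8.62 and 8.34 with R406, against 2.88 and 2.95 in DMSO. It was bright only on the treated DHL4 arrays among the 4 groups (line difference -5.41 ± 0.44). The same held for PDE4B, a cAMP phosphodiesterase (-4.72), VPREB1, a part of the surrogate light chain (-4.34), PECAM1, the adhesion molecule CD31 (-4.32), CD69, an early activation antigen of lymphocytes (-4.19), and P4HA2, a subunit of the collagen prolyl hydroxylase (-3.79). Levels below 4 carry little information here, so the size of these changes is uncertain.

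Other strong risers of DHL4 passed the dim level in at least 1 DHL6 group. FCMR, the Fc receptor for IgM, stood at 3.73, 3.94 and 3.88 with R406 and at 4.29, 4.10 and 4.46 in DMSO in DHL6, and at 8.37, 8.32 and 8.24 with R406, against 3.14 and 3.49 in DMSO, in DHL4. Its line difference was -5.43 ± 0.37, and a second probe set gave -4.10. SATB1, a chromatin organiser of lymphocytes, rose by 0.77 in DHL6 and by 4.78 in DHL4 (-4.01 ± 0.29). PCDH9, a protocadherin, rose by 1.15 in DHL6 and by 5.12 in DHL4 (-3.97 ± 0.25), with -2.59 by a second probe set and -0.52 and 0.14, neither called, by dim ones.

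Genes of homing and activation also differed in their response between the lines. Of 21 chemokine and activation genes, 0 were called higher and 9 lower (median -0.37). CXCR4, the chemokine receptor that holds B cells in marrow and the germinal centre dark zone, had 10.89, 10.84 and 10.89 with R406 and 9.32, 9.25 and 9.18 in DMSO in DHL6. On the DHL4 arrays it had 11.53, 11.39 and 11.39 with R406, against 6.69 and 6.32 in DMSO. It rose in both lines without overlap, 3.10-fold in DHL6 and 30.5-fold in DHL4, and the line difference was -3.30 ± 0.18. The level of DHL6 minus that of DHL4 was -0.56 with R406 and 2.74 in DMSO, so the lines lay nearer to each other with R406 and in the opposite order.

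LTB, the membrane anchor of lymphotoxin, rose in DHL4 past the level of DHL6. Its levels in DHL6 were 8.57, 8.58 and 8.60 with R406, against 8.49, 8.52 and 8.49 in DMSO. In DHL4 they were 9.93, 10.09 and 9.97 with R406, against 6.12 and 6.06 in DMSO. LTB rose 15.0-fold in DHL4 and by 0.08 ± 0.10, not called, in DHL6 (line difference -3.82 ± 0.15). The level of DHL6 minus that of DHL4 was -1.41 with R406 and 2.41 in DMSO. RGS1, which shortens G-protein signals, rose in DHL4 (3.31) and was not called in DHL6 (-0.15), with a line difference of -3.46 ± 0.31. A second RGS1 probe set gave -1.52, and a dim one, not called, gave -0.03.

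**Figure D3:**
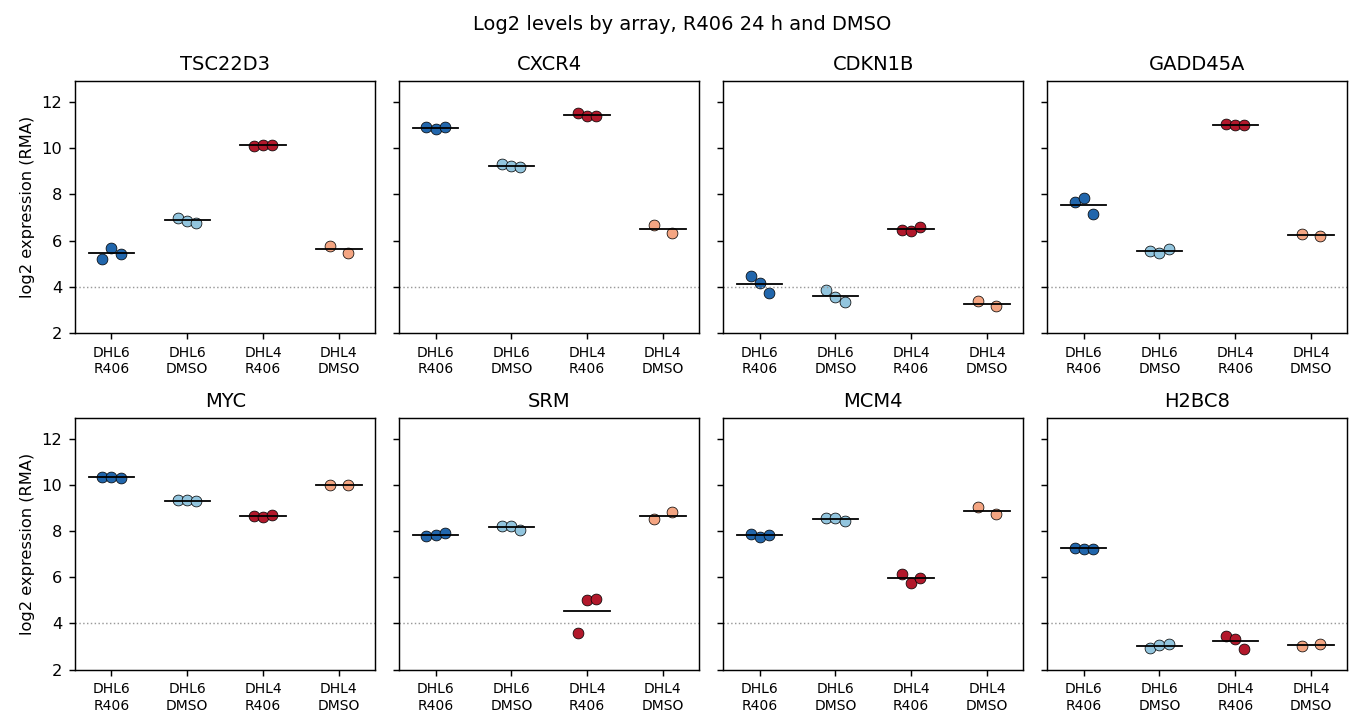
Log2 expression on each array (points) with the group mean (bar) for 8 genes, in DHL6 with R406 for 24 h, DHL6 in DMSO, DHL4 with R406 for 24 h and DHL4 in DMSO, from left to right in each panel. The dotted line marks the level of 4 below which a value was taken as dim. MYC and TSC22D3 moved in opposite directions in the lines, and H2BC8 was bright only on the 3 treated DHL6 arrays.

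Opposite called responses ran through several groups of genes. LITAF, an endosomal membrane protein induced by endotoxin, had 7.14, 7.24 and 7.10 with R406 and 7.69, 7.71 and 7.65 in DMSO in DHL6. DHL4 had 8.66, 8.85 and 8.82 with R406, against 4.94 and 5.40 in DMSO. It fell slightly in DHL6 (-0.52 ± 0.16) and rose in DHL4 (3.61 ± 0.18), and the line difference was -4.13 ± 0.24, with -3.68 by the other probe set.

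DEPTOR, an inhibitor of the kinase mTOR, ran the other way. Its levels in DHL6 were 9.04, 9.04 and 9.08 with R406, against 8.12, 7.96 and 8.07 in DMSO. In DHL4 they were 4.38, 4.43 and 3.79 with R406, against 7.42 and 7.35 in DMSO. DEPTOR rose by 1.00 ± 0.13 in DHL6 and changed by -3.19 ± 0.14 in DHL4 (line difference 4.19 ± 0.19). ID3, an inhibitor of E-protein transcription factors, fell in DHL6 (-1.33) and rose in DHL4 (2.16), with a line difference of -3.49 ± 0.28. LY9, a receptor of the SLAM family, fell in DHL6 (-2.48) to a dim level and rose in DHL4 (0.93), with a line difference of -3.41 ± 0.41.

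Genes of antigen receptor and antigen presentation were among those with opposite signs. CD79A, the signalling partner of surface immunoglobulin, had 8.53, 8.39 and 8.26 with R406 and 9.41, 9.51 and 9.34 in DMSO in DHL6. The DHL4 arrays gave 9.72, 9.81 and 9.61 with R406, against 8.83 and 8.80 in DMSO. It fell in DHL6 (-1.03) and rose in DHL4 (0.90), without overlap in either line (line difference -1.92 ± 0.19). CD72, an inhibitory co-receptor, did the same (-1.96 in DHL6, 0.52 in DHL4). Across the 23 measured components of B-cell receptor signalling, 3 were called higher and 7 lower (median -0.12), and without the first DHL4 DMSO array 1 was called higher. MS4A1, which encodes CD20, fell in both lines, by 1.06 in DHL6 and by 2.33 in DHL4 (line difference 1.27 ± 0.14).

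Of 15 MHC class II genes, 2 were called higher and 5 lower, and the median response was -0.35 in DHL6 and 0.34 in DHL4. In DHL6, 2 of them rose (6.20% of all genes) and 8 fell (8.17%), and in DHL4 6 rose (13.0%) and 3 fell (16.5%). HLA-DMB, a chain of the peptide-loading molecule HLA-DM, had 9.57, 9.64 and 9.64 with R406 and 10.39, 10.38 and 10.33 in DMSO in DHL6. Its values in DHL4 were 9.72, 9.68 and 9.62 with R406, against 8.44 and 8.49 in DMSO. The treated levels of the lines met (-0.06 apart), and the line difference was -1.96 ± 0.15. HLA-DOB, of the loading inhibitor HLA-DO, had -2.88 ± 0.49, and IFI30, a lysosomal thiol reductase, fell in both lines and more in DHL4 (1.28 ± 0.18). Of 10 MHC class I and loading genes, 5 were called lower and 0 higher (median -0.73), led by HLA-E (-1.76 ± 0.17). The count of 5 became 3 without either DHL4 DMSO array, without the first DHL6 DMSO array or without the first treated DHL6 array. HLA probe sets can take up transcripts of related HLA genes.

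Interferon response genes were called lower in 11 of 32 and higher in 1 (median -0.11). Of the 32, 6 rose in DHL6 (6.20% of all genes) and 11 in DHL4 (13.0%). Over genes at a level of at least 4 in all 4 groups the median of this list was -1.32. OAS1, which senses viral RNA, rose by 1.27 in DHL6 and by 4.12 in DHL4 (-2.85 ± 0.42), while TRIM22 rose in DHL4 (2.38) and was not called in DHL6 (0.04). The exception was MX2, a dynamin-like antiviral GTPase, which rose in DHL6 (1.85 ± 0.15) and was dim in both DHL4 groups. Lysosome and autophagy genes were called lower in 12 of 24 and higher in 1 (median -0.50). RUBCNL, an autophagy regulator, rose by 2.34 in DHL6 and by 4.32 in DHL4 (-1.98 ± 0.17), and the lysosomal carboxypeptidase CTSA rose in DHL4 (1.82) and was not called in DHL6 (-0.01).

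NF-kB targets were called lower in 7 of 19 and higher in 1 (median -0.49). BCL2A1, a survival protein of the BCL2 family, had 2.03, 2.59 and 2.63 with R406 and 4.51, 4.26 and 4.45 in DMSO in DHL6. On the DHL4 arrays it had 4.26, 4.07 and 3.71 with R406, against 3.46 and 3.42 in DMSO. It fell in DHL6 to a dim level (-1.99 ± 0.22), its change in DHL4 was not called (0.57, adjusted p = 0.0851), and the line difference was -2.56 ± 0.33. CD83, an activation antigen, and TNFAIP3, which ends NF-kB signals, fell in DHL6 (-1.68 and -0.82) and rose in DHL4 (0.51 and 1.08). A dim TNFAIP3 probe set gave -0.52 in DHL6 and -0.04 in DHL4, and its line difference (-0.48) was not called.

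The responses called in DHL6 only had their largest members in the replication-dependent histones. H2BC8 had 7.28, 7.23 and 7.24 with R406 and 2.95, 3.07 and 3.12 in DMSO in DHL6. DHL4 had 3.47, 3.31 and 2.91 with R406, against 3.02 and 3.12 in DMSO. It was bright on the treated DHL6 arrays alone of these groups (line difference 4.04 ± 0.51, with 2.36 by a second probe set). H3C4 behaved alike, with 6.54, 6.48 and 6.34 with R406 and 3.38, 3.21 and 2.84 in DMSO in DHL6, and dim values from 2.56 to 3.08 on all DHL4 arrays (3.41 ± 0.38, with 1.49 by a second probe set).

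Of 16 histone genes measured, 4 were called higher and 0 lower in the line difference. In DHL6 8 rose (6.20% of all genes), against 3 in DHL4 (13.0%). H2AC8 (1.16) and H3C10 (1.01) were the other called members. Over genes at a level of at least 4 in all 4 groups the list's median was -0.48 instead of 0.31, with 0 called higher and 2 lower. Histone genes of 1 class are near-identical in sequence, so a probe set may take up several of them and the named member is uncertain.

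EGR1, an immediate early transcription factor of the receptor, fell in DHL6, with 3.51, 3.22 and 3.50 with R406 against 6.17, 6.05 and 5.76 in DMSO. It was dim on all DHL4 arrays of these groups, and its line difference was -2.51 ± 0.44, with 0.37, not called, by a dim probe set. RGS13, a germinal centre regulator of G-protein signals, fell by 1.44 in DHL6 and was not called in DHL4 (-0.26). Among 13 germinal centre genes, 3 were called higher and 5 lower. LMO2, a transcription cofactor of germinal centre cells, fell in both lines, by 2.57 in DHL6 to a dim level and by 1.20 in DHL4 (-1.37 ± 0.26).

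Other positive differences came from genes that were far brighter in DHL4 than in DHL6 in DMSO. HTR3A, a serotonin-gated channel subunit, was dim in DHL6, with 2.86, 3.13 and 3.23 with R406 and 3.20, 3.21 and 2.90 in DMSO. The DHL4 arrays gave 3.44, 3.56 and 2.95 with R406, against 9.04 and 9.12 in DMSO. The gene went dim on all 3 treated DHL4 arrays, which made its line difference the largest positive one (5.73 ± 0.21, with 3.93 by a second probe set). No fall could be measured in DHL6, where DMSO levels were already dim. The same holds for DCN, the proteoglycan decorin (4.12), and USP2, a deubiquitinase (3.78, with 0.11, not called, by a dim probe set), whose DMSO levels lay at 3.04 or lower in DHL6, and at 8.34 or higher for DCN and 6.65 or higher for USP2 in DHL4. LIMA1, an actin-bundling protein, was above the dim level in DMSO in both lines and dim on all treated DHL4 arrays. It had 3.99, 3.87 and 4.19 with R406 and 4.96, 4.95 and 5.36 in DMSO in DHL6, against 3.42, 3.39 and 2.83 with R406 and 8.73 and 8.35 in DMSO in DHL4 (4.25 ± 0.31). ZMIZ1, a transcriptional coactivator, had 1 DMSO array of DHL6 at 5.04 beside 3.12 and 3.18 (3.01 ± 0.55).

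DCN and THY1 (2.57, higher) and PECAM1 (-4.32, lower) were the only called genes of 12 fibroblast and endothelium markers. The mean level of that list was at most 3.0004 on treated DHL6 arrays and 2.86 on DHL6 DMSO arrays, and ran from 3.45 to 3.52 over treated DHL4 arrays and from 3.59 to 3.63 over DHL4 DMSO arrays, and COL1A1, COL1A2, COL3A1 and VWF were dim in every group. LCK was the only called gene of 12 T-cell markers (-0.999 ± 0.32, adjusted p = 0.0288), and it lost its call under 7 of 20 alternatives, 6 of them the omission of a single array (either DHL4 DMSO array, the first DHL6 DMSO array, the second treated DHL4 array, or the first or second treated DHL6 array). Its other probe set was not called (-0.56). The mean of the T-cell list was at most 3.11 on treated DHL6 arrays, 3.28 on DHL6 DMSO arrays, 3.18 on treated DHL4 arrays and 3.25 on DHL4 DMSO arrays, with 1 member above the dim level in each group. All 10 measured monocyte and macrophage markers were dim in every group. Their part in the line differences was not tested.

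Further lists are given by their counts, beside 9.35% of all genes called higher and 7.00% called lower in the line difference. Genes of TGF-beta signalling, SMADs and ID proteins were called lower in 4 of 18 and higher in 0 (median -0.43). Of the 18, 8 rose in DHL4 (13.0% of all genes). SKIL, a SMAD repressor, had -2.50, with -1.55, called, and 0.28, not called, by its other probe sets. TGFBR2, a receptor chain, had -1.56, with -0.33, not called, by a dim probe set. Pan-B-cell genes were called lower in 5 of 12 and higher in 1 (median -0.20), with VPREB3, a partner of immunoglobulin chains, at -1.84 and the adaptor BANK1 at -1.44 (not called without the second DHL4 DMSO array, adjusted p = 0.0543). Plasma cell genes had 1 higher and 2 lower of 13, p53 targets 1 higher and 3 lower of 15, and immediate early and ERK feedback genes 3 higher and 5 lower of 25. Adhesion, homing and G-protein genes had 5 higher and 8 lower of 24. The death-promoting BCL2 family had 2 higher and 3 lower of 9, and the survival-promoting family 1 lower of 7, which was BCL2A1.

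The direct target and the death-promoting genes had smaller line differences. SYK had 7.93, 7.73 and 7.65 with R406 and 5.40, 5.23 and 4.84 in DMSO in DHL6. Its values in DHL4 were 9.37, 9.34 and 9.31 with R406, against 7.43 and 7.39 in DMSO. It rose in both lines without overlap, by 2.61 ± 0.17 in DHL6 and 1.93 ± 0.19 in DHL4, and the line difference was not called (0.68, 95% interval 0.15 to 1.21, adjusted p = 0.0788). A dimmer SYK probe set gave the opposite sign (-0.94 ± 0.20, adjusted p = 0.00178), so the direction of a line difference in SYK is not settled.

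HRK, a death-promoting BCL2 family member, had 7.74, 7.32 and 8.04 with R406 and 4.53, 4.55 and 4.77 in DMSO in DHL6. On the DHL4 arrays it had 8.38, 8.11 and 8.62 with R406, against 3.66 and 3.54 in DMSO. The rise was 8.45-fold in DHL6 and 27.3-fold in DHL4 from a dim start (line difference -1.69 ± 0.34), and the dim probe sets of HRK, at -0.03 and -0.29, were not called. PRKCB, the protein kinase C of receptor signalling, rose 13.2-fold in DHL6 and 35.1-fold in DHL4 (-1.41 ± 0.34), and a second probe set gave -2.42. Without the second DHL4 DMSO array PRKCB was not called (-1.13, adjusted p = 0.0586). BCL2L11, which encodes BIM, was not called (0.65 ± 0.27, adjusted p = 0.113), nor was BCL6, the germinal centre repressor (0.34 ± 0.18, adjusted p = 0.263). A dimmer BCL6 probe set was called at 1.31.

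KMO, an enzyme of tryptophan breakdown, fell more steeply in DHL6. It had 3.76, 3.21 and 3.28 with R406 and 8.39, 8.43 and 8.37 in DMSO in DHL6, against 4.19, 4.06 and 3.55 with R406 and 6.70 and 6.64 in DMSO in DHL4. Both lines ended near the dim level. The fall was -4.98 in DHL6 and -2.73 in DHL4, and the DMSO level of DHL6 was the higher by 1.73. The line difference was -2.25 ± 0.59. The other KMO probe sets gave -1.24, called, and -1.20, not called. BACH2, a repressor that restrains plasma cell differentiation, rose in both lines (2.35 in DHL6, 3.11 in DHL4), with a line difference of -0.76 ± 0.22 by its brightest probe set and -2.50 by the other. The value by the brightest was not called without the second DHL4 DMSO array (-0.67, adjusted p = 0.0935) or the first DHL6 DMSO array (-0.56, adjusted p = 0.0538).

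Responses that were alike could be shown only for a part of the genes. Of 1174 genes called in both lines with the same sign, 180 had a 95% interval of the line difference that stayed within 1.5-fold in either direction, 84 up and 96 down. TCL1A, a coactivator of AKT, had 9.69, 9.67 and 9.74 with R406 and 7.22, 7.31 and 6.89 in DMSO in DHL6. DHL4 had 11.24, 11.34 and 11.20 with R406, against 8.73 and 8.82 in DMSO. The rise was 5.89-fold in DHL6 and 5.61-fold in DHL4. MME, the surface peptidase CD10, rose by 2.39 in DHL6 and 2.42 in DHL4, and ALDH5A1, an enzyme of GABA breakdown, by 1.90 in DHL6 and 2.03 in DHL4. Among falling genes, DIAPH1, a formin that builds actin filaments, changed by -1.42 in DHL6 and -1.50 in DHL4, and CDK1, the mitotic kinase, by -1.24 in DHL6 and -1.29 in DHL4.

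The lines lay farther apart with R406 at 24 h than in DMSO for most genes with a called line difference. Between DHL6 and DHL4, 3826 genes (31.5%) were called with R406 at 24 h and 2500 (20.6%) in DMSO. These counts are not equally sensitive, because DHL4 has 3 arrays with R406 and 2 in DMSO. Without the first or the second DHL4 DMSO array the count in DMSO was 1788 or 1778. Among the 1989 genes with a called line difference, the gap between the lines was wider with R406 in 1354 and narrower in 635. The line difference is itself the gap with R406 minus the gap in DMSO. Choosing genes by it favours a wider gap with R406 wherever the DMSO gap is small. The split therefore describes the chosen genes and is no separate evidence. Over all genes the median absolute gap was 0.21 with R406 and 0.17 in DMSO. MYC was higher in DHL6 than in DHL4 with R406 (1.67) and lower in DMSO (-0.67). The level of DEPTOR in DHL6 minus that in DHL4 was 4.85 with R406 and 0.66 in DMSO, and that of TSC22D3 was -4.67 with R406 and 1.25 in DMSO. HTR3A narrowed, with -0.24 with R406 and -5.97 in DMSO.

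Set against the other times, the line difference at 24 h involved the most genes. At 2 h it was called for 214 genes (1.76%), at 6 h for 857 (7.04%), at 24 h for 1989 and at 48 h for 618 (5.08%). These comparisons share the DMSO arrays. Without either DHL4 DMSO array the count at 2 h was 102 or 133, and it was 514 at 6 h and 236 at 48 h without the second. The count at 48 h was 402 without the first DHL6 DMSO array, 403 without the first 48 h array of DHL4 and 1239 without the second 48 h array of DHL6. A replicate pair of DHL6 at 48 h had the lowest correlation of any group (0.978).

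The change of the line difference between times needs no DMSO array, because these cancel. From 6 to 24 h it was called for 1366 genes (11.2%), 912 more positive (7.50%) and 454 more negative (3.73%). From 24 to 48 h it was called for 2653 (21.8%), 956 more positive (7.86%) and 1697 more negative (13.9%). The MYC list was among those that moved back: 31 of its 35 members were called more negative from 24 to 48 h and 0 more positive (median change -2.06), and at 48 h 1 was called higher (1.62% of all genes) and 10 lower (3.46%) in the line difference itself (median -0.54). Of the 29 DNA replication genes, 27 were called more negative from 24 to 48 h. For the FOXO list, 10 members were called more positive and 1 more negative, and its median line difference was -0.04 at 2 h, -0.42 at 6 h, -0.89 at 24 h and -0.10 at 48 h.

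Single genes reached their line difference at different times. For MYC it was 2.27 at 2 h, 2.44 at 6 h, 2.34 at 24 h and 0.56 at 48 h, all called, so the value at 2 h was already close to that at 24 h. SRM had -0.10, 1.66, 3.77 and -0.43 at the same times, of which 1.66 and 3.77 were called. MCM4 had -0.05, 0.23, 2.21 and -0.92, called at 24 and 48 h with opposite signs. DEPP1 had -0.01, 0.17, -5.41 and 1.69, also called at 24 and 48 h only. USP2 differed from 2 h on, with 3.84, 3.73, 3.78 and 1.89. LTB had -0.47, -1.56, -3.82 and -3.03 and kept a large difference at 48 h, as H2BC8 did with 0.26, 0.46, 4.04 and 3.14. HRK and PRKCB changed sign between 24 and 48 h, HRK with -1.69 and 3.05 and PRKCB with -1.41 and 3.21, and both changes were called (4.75 and 4.61 log2 units). HRK had also been higher in DHL6 at 2 h (1.98), with 0.38, not called, at 6 h.

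**Figure D4:**
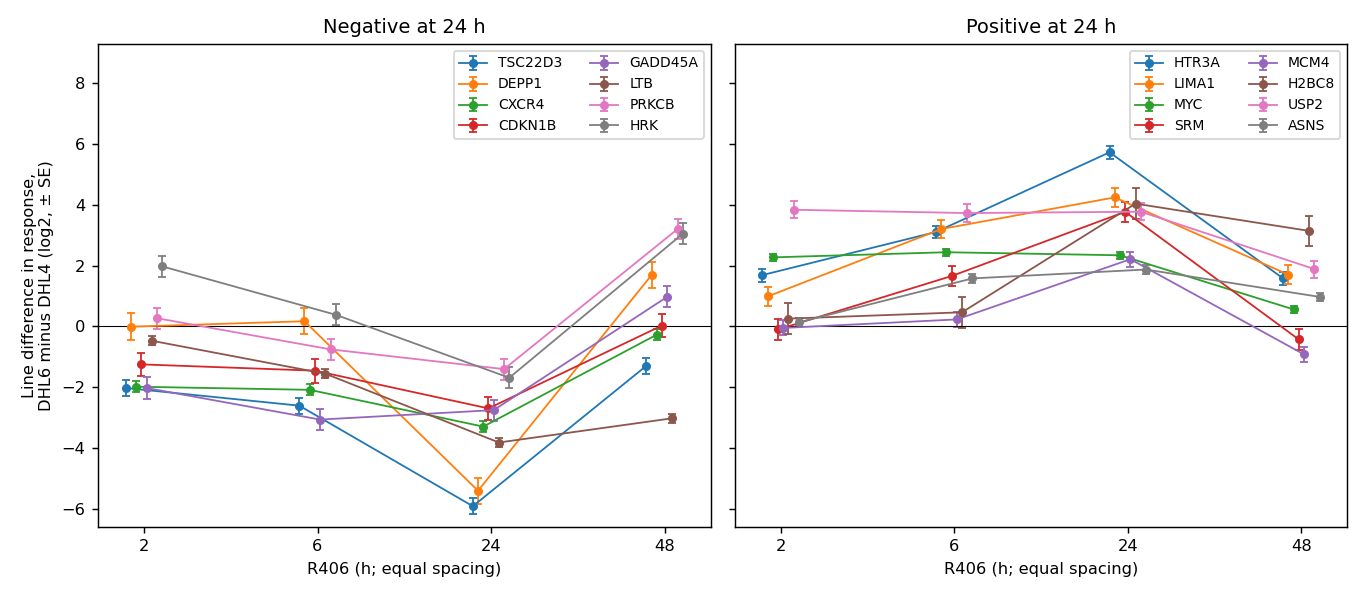
Line difference (response of DHL6 minus response of DHL4, log2, ± SE) at 2, 6, 24 and 48 h of R406 for 16 genes, split by its sign at 24 h. All times use the same DMSO arrays. The values of SRM (3.77 at 24 h, -0.43 at 48 h) and TSC22D3 (-5.92 at 24 h, -1.30 at 48 h) moved back toward 0 by 48 h, and those of HRK and PRKCB crossed it.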

How the data were processed

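The arrays are Affymetrix expression arrays, per the labels' protocols. The file holds log2 expression per probe set, which the authors made with RMA, per the submitters' processing notes; neither its version nor which arrays it took together is stated there. RMA compresses dim levels, so changes of dim genes are understated. The deposited log2 values ran from 1.99 to 13.5 over 22277 probe sets. Of these, 19724 had a single gene symbol (19707 updated by Entrez identifier through RefSeq's GRCh38.p14 table), 568 several, 1923 none listed and 62 were controls. A gene was represented by the probe set with its highest average level across arrays, for 12165 genes. No normalization was added.

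lmFit and eBayes of limma 3.58.1 (R 4.3.3) fitted 10 group means to 29 arrays, with 19 residual and 5.05 prior degrees of freedom. All 29 arrays entered so that the groups share an estimate of spread. The contrasts were the line difference at each time, each line's 24 h response, the line gap in DMSO and with R406, and changes of the line difference between times. The fit was tested on simulated data. The members, the 36 lists (658 of 731 members measured) and the tests were chosen with earlier results of these data known. Genes named are the 12 largest called line differences each way, the 5 largest with opposite called signs, 5 alike genes each way, up to 4 called members per list, and SYK, HRK, MYC, BCL6, BCL2L11, PRKCB, GADD45A, CDKN1B, CCND2, SRM, TXNIP, HMGCS1, CXCR4, BACH2 and KMO. Alternatives were other sample sets, scalings, filters and probe set rules, a replicate block, a 2-fold minimum and leaving out each array.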

Additional observations from a re-analysis of the deposited data

Results flagged for a closer look

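The responses of the lines to the same 24 h treatment were compared by the line difference, and 1989 genes passed that test. A difference of that line difference between 24 and 48 h passed for 2653 genes. The 5 largest line differences among genes with called responses of opposite sign were looked at singly. The line difference was -5.92 for TSC22D3, 4.19 for DEPTOR, -4.13 for LITAF, -3.49 for ID3 and -3.41 for LY9.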

How the results depend on the processing

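The count of 1989 called line differences at 24 h lay between 1707 and 2824 under the other sample sets, scalings, filters, probe set rules and variance settings, apart from the 2-fold minimum. With only the 11 arrays of the 4 groups, 2507 genes were called, 717 had called responses of the same sign, 144 of opposite signs and 71 none, and 357 were alike. The mean of a gene's probe sets gave 284 alike genes, and testing all probe sets, which raises the number of features, gave 70 with neither response called. With a 2-fold minimum, which by construction lowers counts, 1090 line differences were called at 24 h (609 higher, 481 lower), 494 at 6 h and 323 at 48 h. That minimum left 403 responses in DHL6, 1669 in DHL4, 1561 line gaps with R406 and 1010 in DMSO, and 571 changes from 6 to 24 h and 1403 from 24 to 48 h. The classes then held 78 (DHL6 only), 790 (DHL4 only), 77 (same sign), 7 (opposite signs) and 138 (neither), with 14 alike.

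Leaving out single arrays gave 1532 to 1881 line differences at 24 h (877 to 1075 higher, 589 to 807 lower), 102 to 252 at 2 h, 514 to 864 at 6 h and 236 to 1239 at 48 h. It gave 1331 to 1517 responses in DHL6, 2884 to 3408 in DHL4, gaps of 3445 to 3519 genes with R406 and 1778 to 2219 in DMSO, and changes of 1118 to 1347 genes from 6 to 24 h and 2337 to 3128 from 24 to 48 h. The classes held 140 to 174 (DHL6 only), 922 to 1206 (DHL4 only), 351 to 441 (same sign), 58 to 84 (opposite signs) and 24 to 62 (neither), with 103 to 159 alike. Leaving out the first DHL6 DMSO array gave the 58, the second DHL4 DMSO array the 24 and the 103, and the first DHL4 DMSO array gave 106 alike. The runs without single arrays of the 2, 6 and 48 h groups were chosen after seeing the data. The cause of these shifts was not tested.

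A replicate block gave 1979 line differences at 24 h (1110 higher, 869 lower). In the 4 groups, deviations of same-numbered arrays had r from -0.05 to 0.12, with 2 of 15 pairs above 0.1. Those of other-numbered arrays had r from -0.12 to 0.07, with 0 of 30 pairs above 0.1. Over all 10 groups, 18 of 126 same-numbered and 37 of 252 other-numbered pairs lay above 0.1. Each deviation is taken from the mean of a few arrays, so these correlations cannot decide whether the numbers pair the arrays. Of the 139 called genes named by the rule, 28 lost their call under at least 1 alternative, 20 of them apart from the 2-fold minimum, and 0 changed sign. Dim probe sets limit the rest: 6454 genes were dim in all 4 groups.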
